A study of Mus musculus with 12 samples.

Results

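Livers that had lost ARNT were compared directly with livers that had lost AHR, in the 3 ARNT KO and 3 AHR KO libraries of a series of 12. The 6 libraries were chosen by their genotype label, and the whole transcriptome entered the comparison. All mice were C57BL/6 females, 6 months old, that had been fed a high-fat diet for 13 weeks, and poly-A RNA of the liver was sequenced. ARNT KO and AHR KO stand for hepatic loss of ARNT or AHR, and ARNT Flox and AHR Flox, also 3 mice each, carry the Flox genotype named for the same gene. The recombinase, the cells in which it acted, the deleted part of each gene, and litter, cage or date do not appear in the labels.

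AHR, the aryl hydrocarbon receptor, is a transcription factor that is activated by dietary, microbial and environmental ligands and induces genes of xenobiotic metabolism. It binds DNA only as a dimer with ARNT, a partner that the hypoxia-inducible factors also need. Loss of AHR therefore removes one dimer, while loss of ARNT is known to disable both AHR and hypoxia-inducible factor signaling. A direct comparison of the knockouts asks where the livers differ once either protein is gone.

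Total counts ran from 23585909 to 33255004 per library. ARNT KO 3 stood apart from every other library on the first principal component, which held 43.0% of the variance: it lay at 65.3, the other 11 between −30.9 and 30.3, and ARNT KO 1 and 2 at −10.8 and 2.25. Its Arnt, Cd1d2, Rps3a and Sntg2 lay close to those of ARNT KO 1 and 2, whereas its Alb lay with AHR KO. Results are therefore given with all 12 libraries and without ARNT KO 3. A gene is said to be called, or higher or lower, at an adjusted p under 0.05 (edgeR quasi-likelihood test, Benjamini-Hochberg over all genes tested). Levels are in CPM, counts scaled to library size by TMM, and changes are log2 of ARNT KO over AHR KO with the standard error (SE) of the fit. Of the defining hepatocyte markers, Ttr, Apoa1, Serpina1a, Cps1 and Hnf4a were abundant in all 6 knockout libraries. Ttr and Cps1 overlapped between the knockout groups. Hnf4a was at 474 to 528 CPM in ARNT KO and 651 to 897 CPM in AHR KO. Apoa1 (7820 to 8641 against 9069 to 10751 CPM) and Serpina1a (676 to 1173 against 1380 to 1579 CPM) also lay below AHR KO in every ARNT KO library. None of these genes was called, and 24.2% of all genes tested did not overlap. Alb was low in AHR KO and ARNT KO 3 as described below.

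The livers differed at 98 of 13968 genes tested (0.702%), 44 higher (0.315%) and 54 lower (0.387%) in ARNT KO than in AHR KO. The smallest called change was 0.36 and 45 calls were at least 1 on the log2 scale. Without ARNT KO 3 the count was 64 of 14073 (0.455%), 29 higher (0.206%) and 35 lower (0.249%). Of the genes called, 53 were called in both fits, 54.1% of the 98 and 82.8% of the 64, and all 53 had the same direction. The other 45 of the 98 had the same direction and an unadjusted p under 0.05 without ARNT KO 3, where 17.2% of all genes had one. The 11 genes called only without it were Alb, Gpr135, Fam47e, Mmd2, 2810055F11Rik, Gopc, Ccs, Nlrp12, Guca1a, Hspb1 and D7Ertd143e. The knockout groups did not overlap for any of the 98 or the 64, against 24.2% and 33.8% of all genes tested. The number of calls moved with each library: it was 913, 48 and 64 without ARNT KO 1, 2 and 3, 36, 60 and 17 without AHR KO 1, 2 and 3, 50, 36 and 48 without ARNT Flox 1, 2 and 3, and 55, 53 and 65 without AHR Flox 1, 2 and 3. The 64 became 17 and 26 without ARNT KO 1 and 2, 106 and 37 without AHR KO 2 and 3, and 42 without ARNT Flox 2. With only the 6 knockout libraries in the fit 8 genes were called, while DESeq2 called 1244, 96 of the 98 among them, and limma with library quality weights 554. Arnt, Cd1d2, Gm8801, Gm8909, Rps3a, Sntg2 and Sult2a6 were called under all 19 alternatives to the 12-library fit, and 0 of the 98 genes changed direction under any of them.

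**Figure D1:**
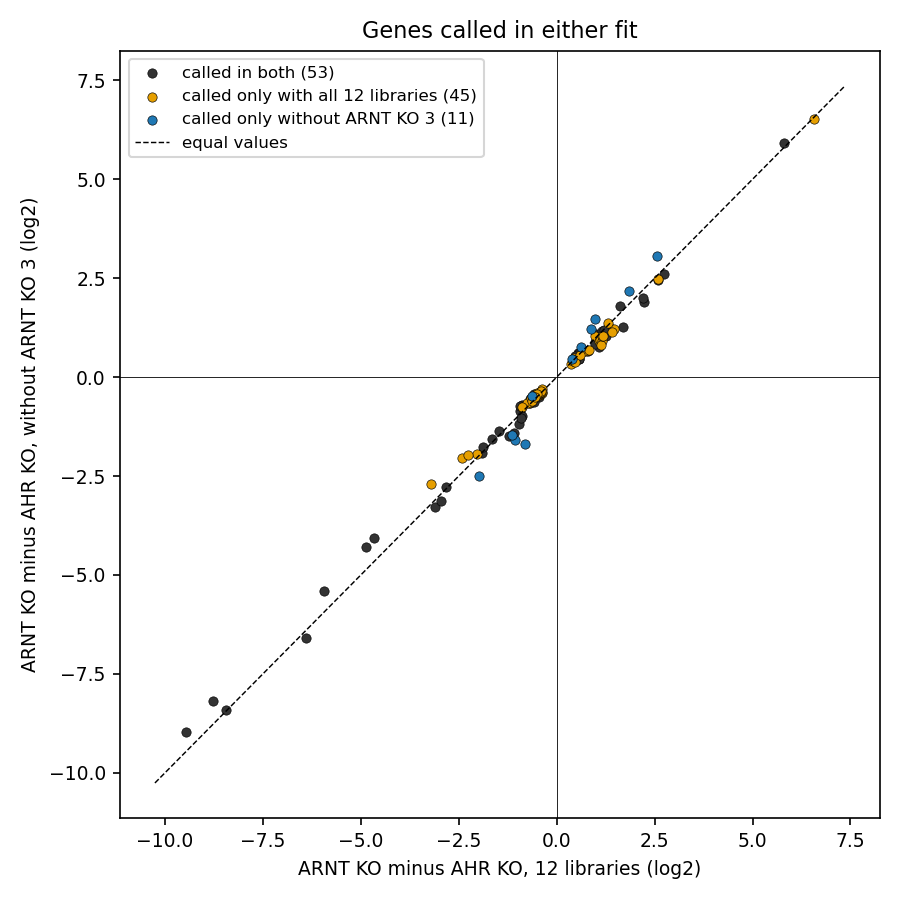
Log2 change of ARNT KO over AHR KO with all 12 libraries (x axis) and without ARNT KO 3 (y axis) for the genes called in either fit, one point per gene, coloured by the fit that called it. Every point has the same sign in both fits, and among the 11 genes called only without ARNT KO 3 the highest is Alb, at 2.56 and 3.07.

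Some of these differences were also present between the control lines. ARNT Flox against AHR Flox called 46 genes (0.329%), 19 higher and 27 lower. Residuals of the same-numbered Flox libraries correlated weakly, which does not establish pairing. The count with the replicate number as a block, 23, is therefore given beside the 46. Of the 98 genes, 14 (14.3%, and 30.4% of the 46) were also called between the Flox groups in the same direction, 9 with the block. Another 19 were not called there but showed at least 0.5 times the knockout change in the same direction, 2 were called there in the opposite direction, and 63 had no such mark. The 14 became 31 and 26 without ARNT KO 1 and 3, and 8 without ARNT Flox 1, 2 or 3 or AHR Flox 1. Without ARNT KO 3 the Flox comparison called 1532 genes (10.9%), and 26 of the 64 knockout calls (40.6%, and 1.70% of the 1532) were shared in direction, 4 were opposite and 34 had no mark. The 46 were 85 and 1532 without ARNT KO 1 and 3, 12, 12 and 14 without ARNT Flox 1, 2 and 3, 14, 24 and 16 without AHR Flox 1, 2 and 3, and 24 without AHR KO 2. With only the Flox libraries in the fit it was 1615, with DESeq2 572 and with quality weights 2395. The knockout gap differed from the Flox gap in 6 genes (0.043%) with 12 libraries and in 194 (1.38%) without ARNT KO 3.

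**Figure D2:**
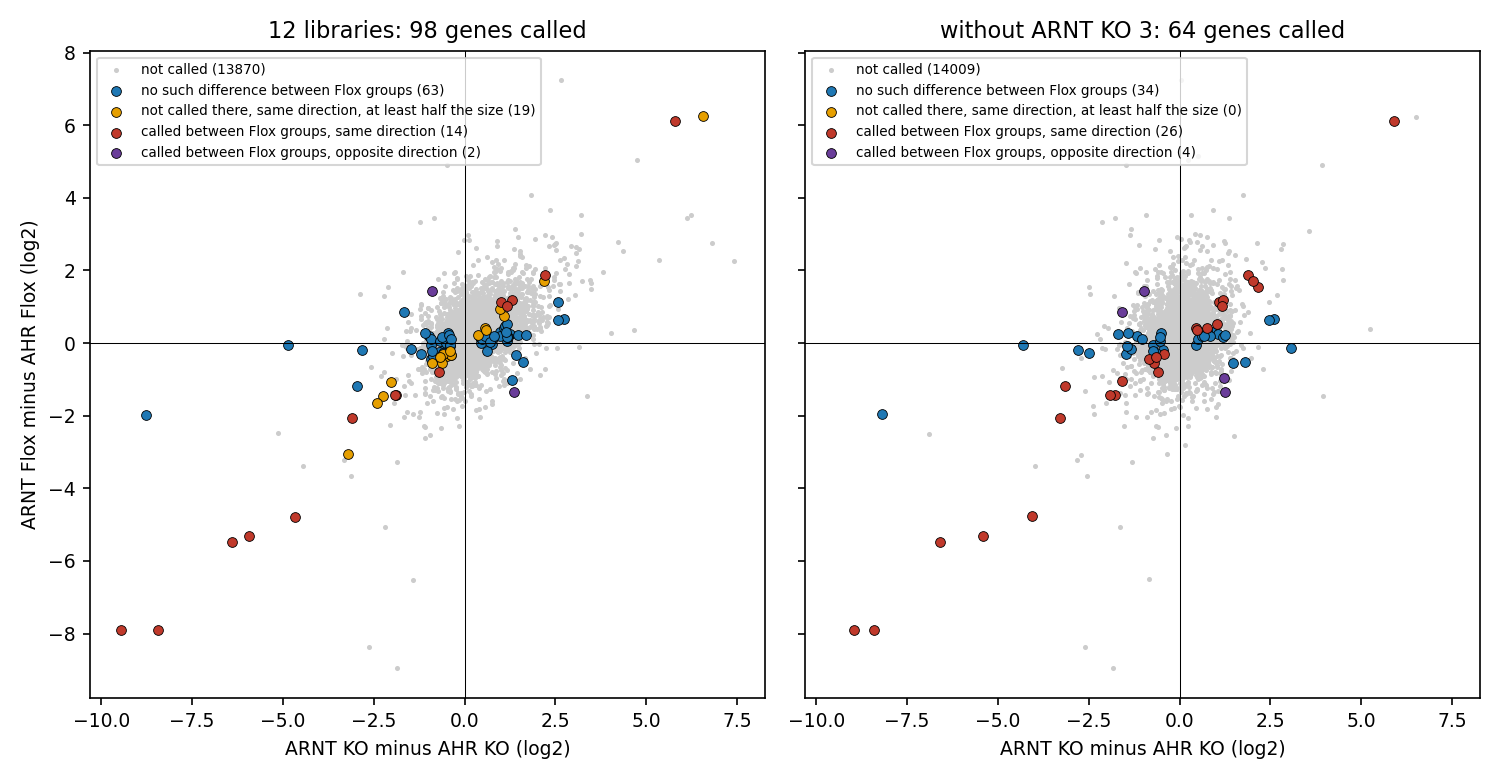
Each point is a gene: x axis, log2 change of ARNT KO over AHR KO; y axis, log2 change of ARNT Flox over AHR Flox; left, all 12 libraries; right, without ARNT KO 3. Coloured points were called between the knockouts, with the colour giving what the Flox groups showed. The 14 red points on the left lie along the rising diagonal, while most of the 63 blue points lie closer to 0 on the y axis. Genes with counts of 0 in a group have fitted values that depend on the prior count.

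For the genes without a mark, the AHR KO group was most often the one that stood apart. Among the 63, its mean log2 CPM was the farthest from the other 3 groups for 52 genes (82.5%) and that of ARNT KO for 11 (17.5%), against 36.6% and 16.5% of all genes tested. Both the call rule and the mark used these values and favour the knockout groups, so the shares are a description and those of all genes are no test of them. A Flox group was the farthest for 0 of the 63 genes, against 25.8% (ARNT Flox) and 21.2% (AHR Flox) of all genes tested. The ARNT KO mean includes ARNT KO 3, and the shares without that library were not computed.

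Arnt, the gene targeted in ARNT KO, was checked first. Arnt (chromosome 3, 95434367 to 95497240, mm10) held 25.2, 23.9 and 18.95 CPM in ARNT KO 1, 2 and 3 and 65.5, 68.0 and 55.2 CPM in AHR KO 1, 2 and 3. All ARNT KO libraries, the third included, lay far below all AHR KO libraries. The change was −1.47 (SE 0.125, adjusted p = 0.000238), and −1.35 (SE 0.117, adjusted p = 0.000286) without ARNT KO 3. Arnt did not differ past the threshold between the Flox groups (−0.17, adjusted p = 0.445). Ahr (chromosome 12, 35497979 to 35534989) held 62.1, 78.4 and 92.4 CPM in ARNT KO and 84.4, 94.8 and 80.3 CPM in AHR KO. The groups overlapped (−0.16, SE 0.171, adjusted p = 0.592), so counts over the whole gene gave no check of the AHR KO label. Reads outside a deleted stretch are still counted for the gene.

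Sult2a4 and Sult2a6, sulfotransferases of bile acids and steroids on chromosome 7, set AHR KO apart from every other group. Their promoters are printed because transcripts of both genes appeared together in AHR KO and near 0 elsewhere. Beside them are the promoters of Selenbp2, called lower, and Ntrk2, called higher in ARNT KO, as windows that hold at least 1 core motif of the ARNT dimers. The match counts of Selenbp2 and Ntrk2 are therefore no comparison for the Sult2a genes. Every printed window runs from 250 bases before to 50 after the gene start on its own strand (RefSeq, GRCm38.p6, the mm10 assembly). In the order printed, the windows are chr7:13989539-13989838 (minus strand), chr7:14254821-14255120 (minus), chr3:94693323-94693622 (plus) and chr13:58806319-58806618 (plus). Capitals mark GCGTG, a core of the AHR-ARNT site, and ACGTG, a core of the hypoxia-inducible factor site. Both strands were searched, so that CACGC and CACGT are capitals too. A match to either core does not tell which ARNT dimer could bind.
Sult2a4: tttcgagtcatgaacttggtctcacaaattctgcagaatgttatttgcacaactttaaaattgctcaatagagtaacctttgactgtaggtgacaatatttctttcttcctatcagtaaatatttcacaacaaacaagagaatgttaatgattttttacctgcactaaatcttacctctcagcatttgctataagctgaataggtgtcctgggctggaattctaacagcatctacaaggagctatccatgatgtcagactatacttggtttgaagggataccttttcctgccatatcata
Sult2a6: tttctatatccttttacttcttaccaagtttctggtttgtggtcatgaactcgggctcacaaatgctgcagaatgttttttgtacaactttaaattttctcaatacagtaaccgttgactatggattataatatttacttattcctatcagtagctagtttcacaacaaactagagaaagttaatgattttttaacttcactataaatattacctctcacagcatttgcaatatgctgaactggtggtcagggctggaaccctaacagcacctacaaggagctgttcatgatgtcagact
Selenbp2: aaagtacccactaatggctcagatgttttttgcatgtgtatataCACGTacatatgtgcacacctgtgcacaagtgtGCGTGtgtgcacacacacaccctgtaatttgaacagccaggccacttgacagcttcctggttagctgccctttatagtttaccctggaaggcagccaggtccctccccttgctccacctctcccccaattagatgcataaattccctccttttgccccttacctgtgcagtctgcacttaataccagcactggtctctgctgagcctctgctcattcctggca
Ntrk2: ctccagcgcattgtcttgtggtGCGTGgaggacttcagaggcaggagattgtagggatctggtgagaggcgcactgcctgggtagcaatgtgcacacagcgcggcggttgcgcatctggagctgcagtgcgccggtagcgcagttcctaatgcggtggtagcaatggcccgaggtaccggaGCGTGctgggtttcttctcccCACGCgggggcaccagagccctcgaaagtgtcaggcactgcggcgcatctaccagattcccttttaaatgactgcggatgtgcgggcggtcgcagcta
The Sult2a4 and Sult2a6 windows held 0 matches to either core, and the longest run of bases they shared was 15. The Selenbp2 window held 1 GCGTG and 1 ACGTG, and the Ntrk2 window 3 GCGTG. A match to GCGTG was found in 32.4% of all promoters in the RefSeq table, in 53.4% of those of tested genes and in 60.3% of those of the called genes that matched by symbol (44 of 73). For ACGTG the shares were 19.6%, 28.3% and 24.7% (18 of 73). These matches describe the letters only.

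Sult2a4 held 25.9, 27.5 and 11.3 CPM in AHR KO and 1.43, 0.731 and 0.0861 CPM in ARNT KO. The 6 Flox libraries ran from 0.456 to 1.13 CPM, so ARNT KO lay near them and only AHR KO was high. Sult2a4 was lower in ARNT KO (−4.86, SE 0.603, adjusted p = 0.00584), also without ARNT KO 3 (−4.31, adjusted p = 0.00117). Sult2a6 had 511, 608 and 280 counts in AHR KO, 3, 0 and 0 in ARNT KO, and 1 count in all 6 Flox libraries. Its summed counts were 491-fold lower in ARNT KO per scaled read (95% exact interval 168 to 2390, counting error only), and it was called with and without ARNT KO 3 (adjusted p = 0.000363 and 0.000738). With only the knockout libraries in the fit, Sult2a4 lost its call (adjusted p = 0.157) and Sult2a6 kept it. Sult2a7 was at 4.22, 3.05 and 0.144 CPM in ARNT KO and 39.9, 12.7 and 11.8 CPM in AHR KO, and it missed the threshold (−3.13, adjusted p = 0.0672). Between the Flox groups its change was −3.66 (adjusted p = 0.108, and 0.00626 without ARNT KO 3). Sult2a copies share sequence, so reads may be split among them in ways not tested here. In the whole sulfotransferase list, 0 of 18 tested members were called higher and 2 lower, where 0.387% of all genes were lower, and the median change was −0.54 against 0.014 over all genes tested, and −0.415 against 0.004 without ARNT KO 3.

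Growth hormone signaling, which reaches liver genes through STAT5 and sets much of the sex-biased liver programme, had 1 call among 18 tested members, where 0.702% of all genes were called. Socs2, a feedback inhibitor of this pathway and a STAT5 target, held 25.5, 26.4 and 21.9 CPM in ARNT KO and 94.5, 61.3 and 76.8 CPM in AHR KO. All 3 ARNT KO libraries were low and the groups were far apart. The change was −1.655 (SE 0.258, adjusted p = 0.0197) and −1.57 (adjusted p = 0.0482) without ARNT KO 3. Between the Flox groups Socs2 had the opposite sign (0.87, adjusted p = 0.14, and 0.0491 without ARNT KO 3), and the knockout gap differed from the Flox gap by −2.52 (adjusted p = 0.0461). The call was lost without ARNT KO 2 (adjusted p = 0.056), AHR KO 1 (0.0644) or AHR KO 3 (0.0881), and without ARNT KO 3 it was lost with most further libraries left out (adjusted p up to 0.262). Cish, another STAT5 feedback gene, was at 22.9, 26.1 and 19.2 CPM against 56.5, 29.3 and 43.7 CPM (−0.93, adjusted p = 0.15). Igf1, the main liver growth factor downstream of growth hormone, was at 670.2, 569 and 341 CPM against 867, 833 and 868 CPM (−0.70, adjusted p = 0.082, and −0.46, adjusted p = 0.0715, without ARNT KO 3). The groups did not overlap for these genes, though neither passed. Over the list the median change was −0.49, and −0.37 without ARNT KO 3. Lifr, the receptor of leukemia inhibitory factor, was lower in ARNT KO (217, 180.5 and 125 CPM against 333, 321 and 343 CPM; −0.93, adjusted p = 0.0367, and −0.735, adjusted p = 0.0287, without ARNT KO 3).

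Female-biased liver genes had 0 of 39 members called higher and 2 lower, the Sult2a genes above, against 0.315% and 0.387% of all genes, with a median change of −0.54, and −0.255 without ARNT KO 3. Male-biased genes had 0 of 21 called higher and 2 lower, Selenbp2 and Cyp7b1, against the same shares of all genes. The median of the male-biased list was −0.155, and 0.06 without ARNT KO 3, and between the Flox groups it was −0.454 with 12 libraries. Selenbp2, a selenium-binding protein gene 0.74 Mb from Arnt, held 2.33, 1.91 and 2.96 CPM in ARNT KO and 10.4, 21.8 and 24.1 CPM in AHR KO. The lowest AHR KO library was several times above the highest ARNT KO library. The change was −2.965 (SE 0.356, adjusted p = 0.00453) and −3.14 (adjusted p = 0.00827) without ARNT KO 3. The Flox change had the same sign, −1.17 (adjusted p = 0.135), and passed without ARNT KO 3 (−1.18, adjusted p = 0.0415). Cyp7b1, an oxysterol hydroxylase of the alternative bile acid pathway, was at 23.1, 19.5 and 20.04 CPM in ARNT KO and 38.0, 29.4 and 34.3 CPM in AHR KO (−0.70, adjusted p = 0.0246). Without ARNT KO 3 it missed the threshold (−0.66, adjusted p = 0.0581). Of 45 tested Cyp2 and Cyp3a cytochromes, 0 were called with or without ARNT KO 3, with 19 at an unadjusted p under 0.05 in the 12-library fit. For an unadjusted p under 0.05 the share of all genes was 24.6%. The list's median was −0.51, and −0.28 without ARNT KO 3. Between the Flox groups the cytochrome median was −0.10 with 12 libraries. Without ARNT KO 3, 18 of the 45 cytochromes were called lower and 4 higher between the Flox groups, where 10.9% of all genes were called in either direction. Cyp2c54 was at 16.4, 24.0 and 2.96 CPM against 131, 41.9 and 259 CPM (−3.32, adjusted p = 0.0612), and its Flox change was −3.225 (adjusted p = 0.0949, and 0.00733 without ARNT KO 3).

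Esr1, the estrogen receptor alpha gene (chromosome 10), held 216, 199 and 307 CPM in ARNT KO and 471, 473 and 468 CPM in AHR KO. Both knockouts were far above the 6 Flox libraries, which ran from 30.9 to 42.4 CPM, and the AHR KO libraries were the highest. The change was −0.97 (SE 0.146, adjusted p = 0.0196) and −1.175 (SE 0.098, adjusted p = 0.000226) without ARNT KO 3, which was the ARNT KO library nearest to AHR KO. With 12 libraries the call was lost without AHR KO 1 (adjusted p = 0.0524) or AHR KO 3 (0.0847), and with only the knockout libraries (0.261). Counts over the whole gene do not say which part of Esr1 the reads came from. Pebp1, a Raf kinase inhibitor gene, held 208, 208 and 252 CPM in ARNT KO and 339, 239 and 300.1 CPM in AHR KO, with overlap between the groups (−0.395, adjusted p = 0.106). Its Flox libraries held 89.6 to 127 CPM.

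Albumin RNA split the ARNT KO group. Alb held 51926, 53685 and 5740.2 CPM in ARNT KO 1, 2 and 3, and 7088, 5491 and 6352 CPM in AHR KO 1, 2 and 3. ARNT KO 1 and 2 were several times above AHR KO, whereas ARNT KO 3 fell inside the AHR KO range. With 12 libraries Alb was not called (2.56, SE 0.625, adjusted p = 0.07), but was with DESeq2 (adjusted p = 0.00011) and with library quality weights in limma (0.000743). Without ARNT KO 3 it was higher in ARNT KO by 3.07 (SE 0.195, adjusted p = 2.51e-05), under all 15 alternatives to that fit. The 6 Flox libraries held 69704 to 89274 CPM. Afp, the fetal homolog next to Alb, held 4.66, 2.67 and 2.33 CPM in ARNT KO and 1.11, 1.10 and 0.941 CPM in AHR KO. All ARNT KO libraries were higher, ARNT KO 3 included (1.61, SE 0.290, adjusted p = 0.035, and 1.81, adjusted p = 0.0207, without ARNT KO 3). The call of Afp was lost without ARNT KO 2, without any AHR KO, any AHR Flox library or ARNT Flox 2 (adjusted p up to 0.123), and with only the knockout libraries (0.272).

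Chromosome 5, which carries Alb and Afp, held 10 of the 98 calls, all between 62.6 and 100.8 Mb (mm10), a stretch with 154 tested genes (6.49% called). This stretch was drawn around the calls after they were seen. Atp10d, which encodes a phospholipid flippase, held 4.41, 4.13 and 7.41 CPM in ARNT KO and 11.6, 10.9 and 11.6 CPM in AHR KO. ARNT KO 1 and 2 lay within the Flox range of 3.64 to 5.61 CPM, and AHR KO stood above it (−1.10, adjusted p = 0.0357, and −1.41, adjusted p = 0.000738, without ARNT KO 3). Agpat9 (now Gpat3), an acyltransferase of triglyceride synthesis, was lower in ARNT KO in both fits (−0.89 and −0.735, adjusted p = 0.0196 and 0.0142). Nsun7 was lower with 12 libraries only (−2.405, adjusted p = 0.0486, and 0.0715 without ARNT KO 3), with a Flox change of the same sign and a large part of that size that was not called (−1.64, adjusted p = 0.192). Ociad2 was at 35.1, 38.8 and 33.1 CPM against 21.5, 12.7 and 8.90 CPM, higher in ARNT KO with 12 libraries (1.31, adjusted p = 0.0375, and 0.0554 without ARNT KO 3), with a Flox difference of the opposite sign (−1.02, adjusted p = 0.096). Arap2, Tbc1d1, Klhl5, Shisa3 and Dcun1d4 were higher in ARNT KO in both fits, and of these Arap2 (0.41, adjusted p = 0.00534) and Tbc1d1 (0.41, adjusted p = 0.0241) were also called between the Flox groups without ARNT KO 3. Fam47e, Mmd2 and Hspb1, also on chromosome 5, followed Alb in that they were called only without ARNT KO 3. Fam47e was at 23.7, 23.6 and 3.42 CPM in ARNT KO against 7.81, 8.74 and 9.22 CPM in AHR KO (1.47, adjusted p = 0.0256, without ARNT KO 3). Mmd2 was at 51.8, 48.4 and 17.8 CPM against 24.0, 22.6 and 18.0 CPM (1.225, adjusted p = 0.00652), and its Flox difference ran the other way (−0.97, adjusted p = 0.00281, in that fit). Hspb1, a small heat shock protein gene, was at 5.74, 5.27 and 19.4 CPM against 14.3, 14.6 and 24.9 CPM (−1.70, adjusted p = 0.0142). In each of these genes ARNT KO 3 lay on the AHR KO side of ARNT KO 1 and 2.

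The plot of levels by library shows 9 of these genes, 8 whose knockout groups do not overlap and Alb.

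**Figure D3:**
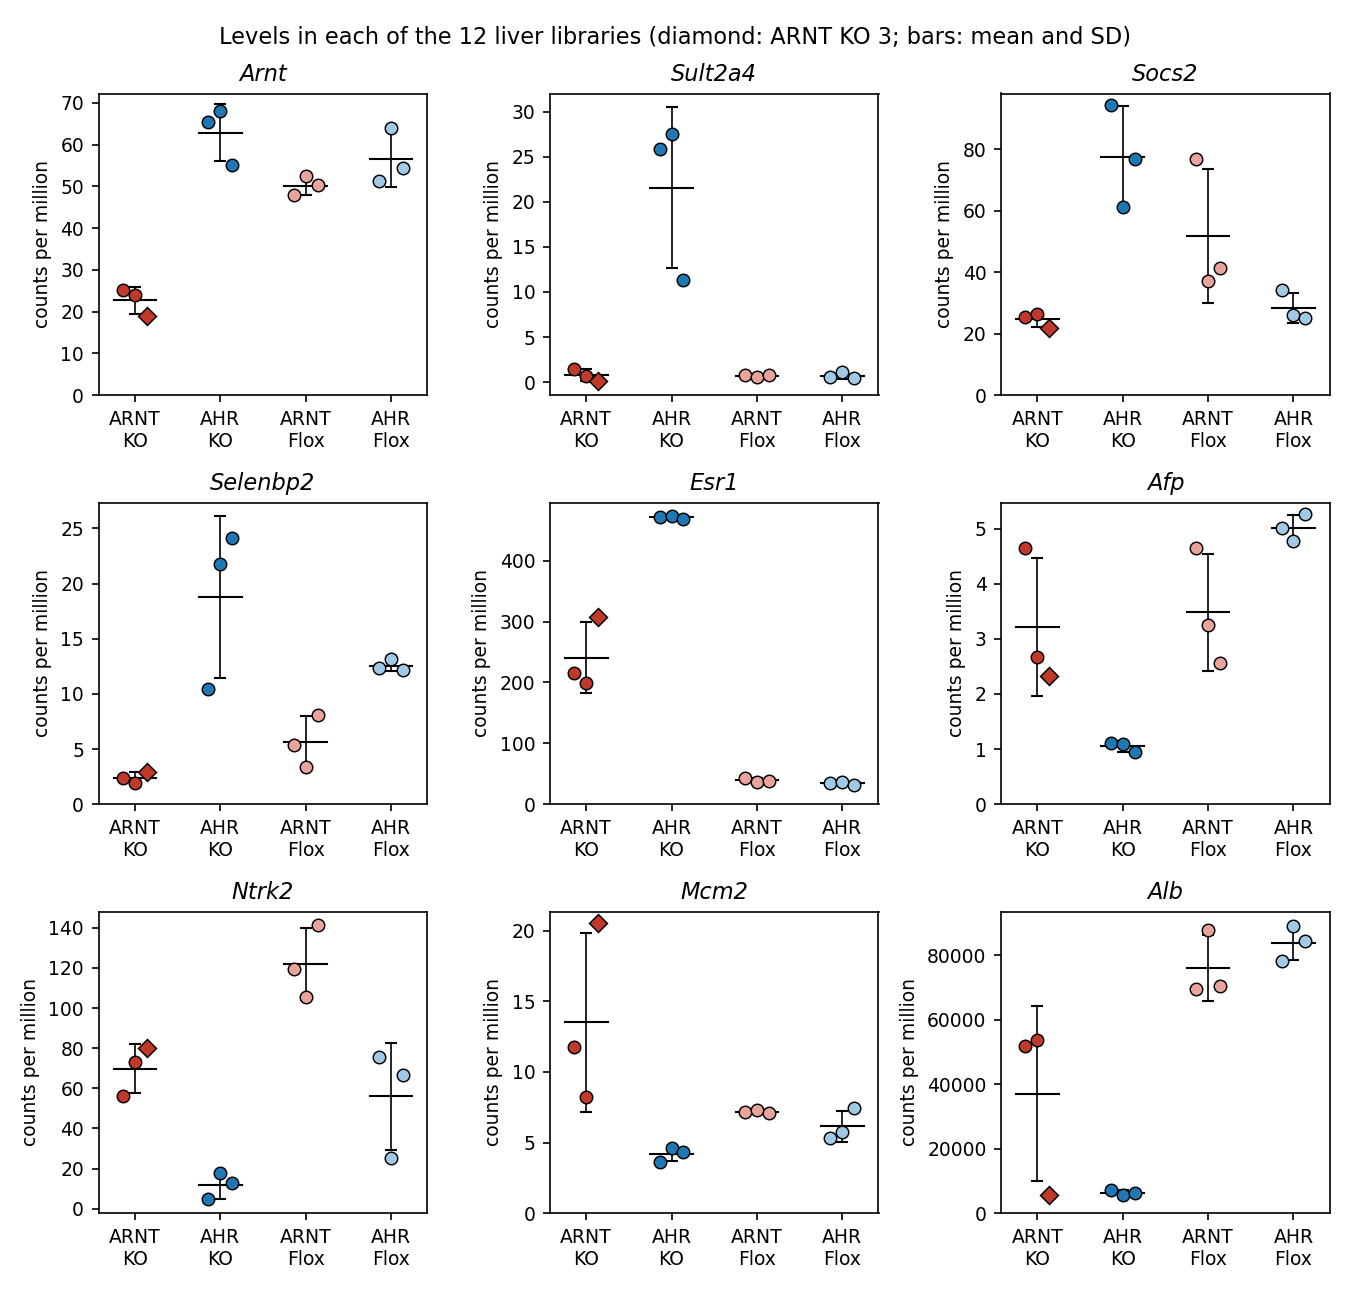
CPM (linear axes) of 9 genes in each of the 12 libraries, with the mean and SD of each group of 3; the diamond is ARNT KO 3. AHR KO stands alone for Sult2a4, Arnt is low only in ARNT KO, and for Alb the diamond at 5740.2 CPM lies with AHR KO.

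Genes that were called between the knockouts and between the Flox groups in the same direction lay on 3 chromosomes: 3 on chromosome 3, which carries Arnt, 5 on chromosome 12, which carries Ahr, and 6 on chromosome 17. Chromosomes 3, 12 and 17 also had the highest shares of tested genes called, at 1.76%, 1.89% and 1.85%, or 1.31%, 2.1% and 1.27% without ARNT KO 3, where chromosome 5 had 1.34%. For these genes, a difference of line and a difference of knockout cannot be told apart within the knockout comparison. The plots by distance show how the calls fall around the targeted genes.

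On chromosome 3, Cd1d2, a lipid antigen-presenting protein gene 8.45 Mb from Arnt, held 27.1, 25.8 and 20.5 CPM in ARNT KO and 0.260, 0.485 and 0.564 CPM in AHR KO. The ARNT Flox libraries held 22.4 to 23.1 CPM and the AHR Flox libraries 0.248 to 0.410 CPM, so the level followed the line (5.79 between knockouts, adjusted p = 1.27e-07, and 6.12 between Flox groups, adjusted p = 1.29e-07). Rps3a, counted in a family with many processed copies, was at 72.7, 74.9 and 75.0 CPM against 254, 281 and 301 CPM (−1.91, adjusted p = 3.73e-06, and −1.43 between Flox groups, adjusted p = 7.68e-05). B3galnt1, a glycosyltransferase of globoside synthesis 25.86 Mb from Arnt, was higher in ARNT KO (2.22, adjusted p = 0.0177) and ARNT Flox (1.86, adjusted p = 0.045). Mtap9 (now Map9), a microtubule-associated protein gene, was higher between knockouts (2.19, adjusted p = 0.0196) and reached 1.71 between Flox groups (adjusted p = 0.0596, and 0.00534 without ARNT KO 3). Gm4349, which starts 0.01 Mb from Arnt, had 10, 14 and 14 counts in ARNT KO and 0 in each AHR KO library, at least 3.95-fold higher against a floor of 3 counts per library (adjusted p = 0.0312, and 0.0585 without ARNT KO 3). Its AHR Flox libraries also had 0 counts and its ARNT Flox libraries 6 to 15.

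On chromosome 12, Sntg2, Tmem18 and Acp1 lie 4.60 to 5.32 Mb from Ahr. Sntg2, a syntrophin gene, held 6.05, 7.40 and 5.28 CPM in ARNT KO and 21.0, 24.1 and 23.8 CPM in AHR KO, and the Flox groups repeated the gap (−1.88 between knockouts, adjusted p = 3.48e-05, and −1.43 between Flox groups, adjusted p = 0.000368). Acp1, a low molecular weight tyrosine phosphatase gene, was higher in the ARNT line (0.99, adjusted p = 0.000371, and 1.12, adjusted p = 0.000223). Tmem18 was lower (−0.69, adjusted p = 0.00788, and −0.79, adjusted p = 0.00301). Dact1, a WNT pathway regulator gene 35.81 Mb from Ahr, was higher in ARNT KO (1.31, adjusted p = 0.0197) and ARNT Flox (1.18, adjusted p = 0.045). Dhrs7, a dehydrogenase gene 37.15 Mb from Ahr, was lower between knockouts (−0.90, adjusted p = 0.0197), with the Flox difference called only without ARNT KO 3 (−0.56, adjusted p = 0.00115). Hdac9, a histone deacetylase gene 1.45 Mb from Ahr, was higher with 12 libraries (1.08, adjusted p = 0.0399, and 0.76, adjusted p = 0.126, between Flox groups). Akap6, a kinase anchoring protein gene, and G2e3, an E3 ligase gene, also lie on chromosome 12, 17.2 and 15.85 Mb from Ahr, and had no matching Flox difference. Akap6 was at 0.155, 0.159 and 0.144 CPM against 1.04, 1.46 and 0.847 CPM (−2.84, adjusted p = 0.0109), and ARNT KO alone was low.

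**Figure D4:**
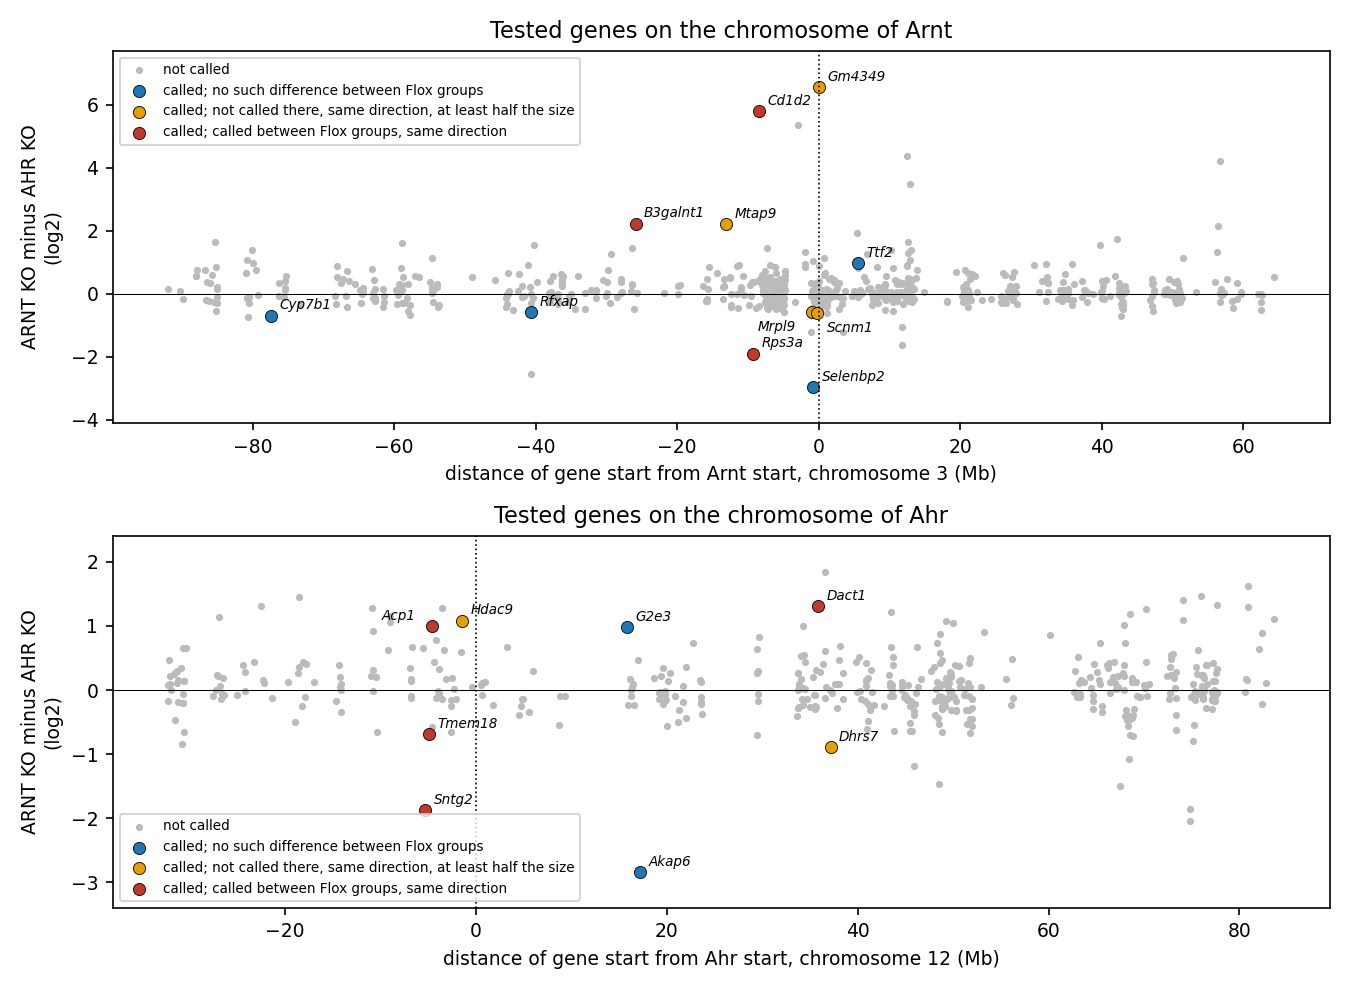
Log2 change of ARNT KO over AHR KO (y axis, 12 libraries) against the distance of each tested gene's start from Arnt on chromosome 3 (top) and from Ahr on chromosome 12 (bottom), in Mb; the targeted genes are left out. Grey points were not called, and coloured points were called, with the colour giving what the Flox groups showed. Red points, shared with the Flox groups, lie 8.45 to 25.86 Mb below Arnt and, apart from Dact1, 4.60 to 5.32 Mb below Ahr.

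On chromosome 17, the shared calls lie in the major histocompatibility region, from 34.3 to 36.1 Mb. H2-T10, a nonclassical class I gene, held 6.64, 6.26 and 8.90 CPM in ARNT KO and 35.3, 76.3 and 77.0 CPM in AHR KO, with the ARNT Flox libraries at 7.67 to 9.59 CPM and the AHR Flox libraries at 26.3 to 48.0 CPM (−3.11 between knockouts, adjusted p = 0.000838). H2-Q6, another class I gene, was higher in the ARNT line (1.16, adjusted p = 0.0207, and 1.03 between Flox groups, adjusted p = 0.0463). Gm8909 had 1, 8 and 7 counts in ARNT KO and 239, 508 and 575 in AHR KO (adjusted p = 0.000156). Gm8801 had 0, 1 and 0 counts against 303, 405 and 226, a ratio of 984 (95% exact interval 176 to 38900). 2410017I17Rik had 2, 3 and 0 counts against 28, 46 and 56, and the pseudogene H2-Ea-ps 0 counts in each ARNT KO library against 33, 55 and 46, at least 15-fold lower against the floor of 3 counts per library. The gene model of 2410017I17Rik lies inside that of Gm8909, and these sequences resemble each other or vary between haplotypes, so the gene to which a read was assigned is uncertain. Among the listed histocompatibility and antigen presentation genes, 1 of 20 was called higher (H2-Q6) and 0 lower, against 0.315% and 0.387% of all genes. The list's median was 0.20, and 0.005 without ARNT KO 3, and between the Flox groups it was 0.687 with 12 libraries. Guca1a, at 47.4 Mb on the same chromosome, was lower only without ARNT KO 3 (−1.59, adjusted p = 0.0482), and so was its Flox difference (−1.06, adjusted p = 0.0245).

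Cell cycle and DNA replication genes had a positive change in 36 of 36 tested members, with a median of 1.26, and 2 were called higher in ARNT KO, where 0.315% of all genes were. The libraries of the knockout groups did not overlap for 18 of the 36, where 24.2% of all genes did not. Mcm2, a subunit of the replicative helicase, was at 11.8, 8.23 and 20.5 CPM in ARNT KO and 3.64, 4.63 and 4.33 CPM in AHR KO. The groups did not overlap, and ARNT KO 3 was the highest library (1.685, SE 0.276, adjusted p = 0.0246, and 1.26, SE 0.180, adjusted p = 0.0142, without it). Mcm4, of the same helicase, was at 13.0, 10.8 and 17.6 CPM against 4.55, 7.44 and 5.33 CPM (1.26, adjusted p = 0.029, and 1.05, adjusted p = 0.0482). Leaving out AHR KO 1 or 3 or ARNT Flox 2 ended both calls (adjusted p = 0.0511 to 0.112). Mcm3 (1.12, adjusted p = 0.0561) and Cdt1, a licensing factor (0.79, adjusted p = 0.0672), did not overlap between groups but missed the threshold. Outside the list, the replication and checkpoint genes Topbp1 (0.81, adjusted p = 0.0196), Wdhd1 (1.18, adjusted p = 0.0329) and Mms22l (1.16, adjusted p = 0.0497) were higher. Only Topbp1 of these was also called without ARNT KO 3 (0.66, adjusted p = 0.0142). Without that library, 34 of the 36 list members had a positive change, the median was 0.59 and the same 2 genes were called. The summed level of the list was 402.9, 387 and 680.1 CPM in ARNT KO 1, 2 and 3 and 201, 301 and 277 CPM in AHR KO. The median between the Flox groups was 0.27.

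Extracellular matrix and stellate cell genes had 33 of 35 positive changes and a median of 0.73 (0.37 without ARNT KO 3), but 0 were called in either fit. With 12 libraries 24 of the 35 had an unadjusted p under 0.05, where 24.6% of all genes had one. The list's median between the Flox groups was 0.467, and 0.465 without ARNT KO 3, where it was above the knockout median. Col15a1 and Col5a3, collagen genes outside the list, were higher with 12 libraries. Col5a3 was at 14.1, 18.3 and 25.8 CPM against 6.77, 6.63 and 8.53 CPM (1.41, adjusted p = 0.0348), and Col15a1 at 12.5, 11.9 and 18.98 CPM against 3.84, 5.99 and 5.96 CPM (1.46, adjusted p = 0.042). Both missed the threshold without ARNT KO 3 (1.15, adjusted p = 0.0647, and 1.22, adjusted p = 0.0731). Sulf2, an extracellular heparan sulfatase gene, was higher with 12 libraries only (0.81, adjusted p = 0.031, and 0.69, adjusted p = 0.0581). Timp2, a metalloproteinase inhibitor gene of the list, was not called (0.73, adjusted p = 0.0727). Ntrk2, the receptor of brain-derived neurotrophic factor, was at 56.4, 72.9 and 80.0 CPM in ARNT KO and 4.59, 17.9 and 12.6 CPM in AHR KO, higher by 2.58 (adjusted p = 0.0345). The AHR Flox libraries themselves ranged from 25.3 to 75.5 CPM, and the call was lost without ARNT KO 3 (2.47, adjusted p = 0.0585). Summed macrophage markers were at 881 to 1882 CPM in ARNT KO and 794 to 917 CPM in AHR KO, cholangiocyte and progenitor markers at 358 to 721 and 348 to 365 CPM, endothelial markers at 530 to 619 and 424 to 541 CPM, and extracellular matrix and stellate markers at 3287 to 3511 and 3092 to 3466 CPM. The highest macrophage and cholangiocyte sums were those of ARNT KO 3. Each defining stellate marker lay above AHR KO in every ARNT KO library, where 24.2% of all genes did not overlap. Lrat was at 33.5 to 40.8 against 20.7 to 30.3 CPM, Des at 5.18 to 6.26 against 3.58 to 4.85 CPM and Reln at 70.8 to 97.9 against 57.8 to 70.2 CPM. So did Cd68, Csf1r and Pecam1, while Clec4f, Stab2 and Kdr overlapped. The gap was narrow for Csf1r (lowest ARNT KO 64.4, highest AHR KO 63.8 CPM) and Pecam1 (17.8 and 17.4 CPM). Cd68 (17.9 to 21.8 against 9.02 to 14.5 CPM), Csf1r (83.7 to 90.7 against 55.6 to 74.2 CPM) and Clec4f also lay higher in every ARNT Flox than in every AHR Flox library. The defining stellate and endothelial markers overlapped between the Flox groups. The part of these cell types in the differences above was not tested. In bulk RNA fewer cells of a type and less RNA per cell cannot be told apart. Of 24 macrophage markers 0 were called, with a median of 0.45, and 0.15 without ARNT KO 3. Between the Flox groups the macrophage median was 0.503 in both fits. Erythrocyte markers had 4 of 4 positive changes and 0 calls (median 0.77, and 0.85 without ARNT KO 3), with sums of 124 to 169.6 CPM in ARNT KO and 70.2 to 91.6 CPM in AHR KO. The defining markers of adipocytes and skeletal muscle were at or near 0 in all knockout libraries, Adipoq reaching 0.699 CPM. Of the markers of acinar pancreas, Prss2 and Pnlip were also at or near 0, whereas Cela1 was at 8.56 to 15.7 CPM in ARNT KO and 11.7 to 15.6 CPM in AHR KO.

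Genes of translation and mitochondria had small negative changes. Of 47 tested members of the cytosolic ribosomal protein list, 45 had a negative change with a median of −0.32. In this list 2 were called lower, where 0.387% of all genes were lower. The list did not hold Rps3a, described above, which was called lower in both fits. Rps25 was at 130.0, 126 and 129.8 CPM in ARNT KO and 161, 169 and 172 CPM in AHR KO (−0.38, SE 0.074, adjusted p = 0.0437). Rpl22 was at 123, 116 and 116 CPM against 154, 157 and 164 CPM (−0.42, SE 0.073, adjusted p = 0.0329). Without ARNT KO 3, 45 of 47 again had a negative change, the median was −0.36, 45 of 47 did not overlap between groups where 33.8% of all genes did not, and 0 were called (Rpl22 had adjusted p = 0.0635). The Flox median had the other sign, 0.19, and in that fit the knockout gap differed from the Flox gap in 14 of the 47, all lower, where 1% of all genes were called lower, among them Rpl23 (−0.63, adjusted p = 0.0382) and Rps14 (−0.67, adjusted p = 0.035). Gas5, a noncoding host of small nucleolar RNAs, and Eef1d, a translation elongation factor subunit, were lower as well (−0.465 and −0.46, adjusted p = 0.0356 and 0.0255), and missed the threshold without ARNT KO 3 (adjusted p = 0.0693 and 0.0565).

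Of 39 nuclear genes of oxidative phosphorylation, 39 had a negative change with a median of −0.28, and 1 was called lower, where 0.387% of all genes were. Ndufs7, a complex I subunit, was at 82.0, 80.9 and 71.5 CPM in ARNT KO and 109, 103 and 116 CPM in AHR KO (−0.49, adjusted p = 0.0411, and −0.42, adjusted p = 0.0807, without ARNT KO 3). The list's median was −0.175 without ARNT KO 3, and it was −0.22 between the Flox groups with 12 libraries. Mrpl9 and Mrpl14, mitochondrial ribosomal proteins, Hspe1, the mitochondrial co-chaperonin, and Hint2, a mitochondrial hydrolase, were lower with 12 libraries (−0.51 to −0.65, adjusted p = 0.0327 to 0.0424). Only Mrpl9 of these, which lies 0.99 Mb from Arnt, was also called without ARNT KO 3 (−0.44, adjusted p = 0.0377), as was its Flox difference then (−0.30, adjusted p = 0.0202). Fatty acid oxidation genes had 34 of 37 negative changes and 0 calls (median −0.37, and −0.21 without ARNT KO 3). In the first fit 16 of the 37 had an unadjusted p under 0.05, where 24.6% of all genes had one.

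**Figure D5:**
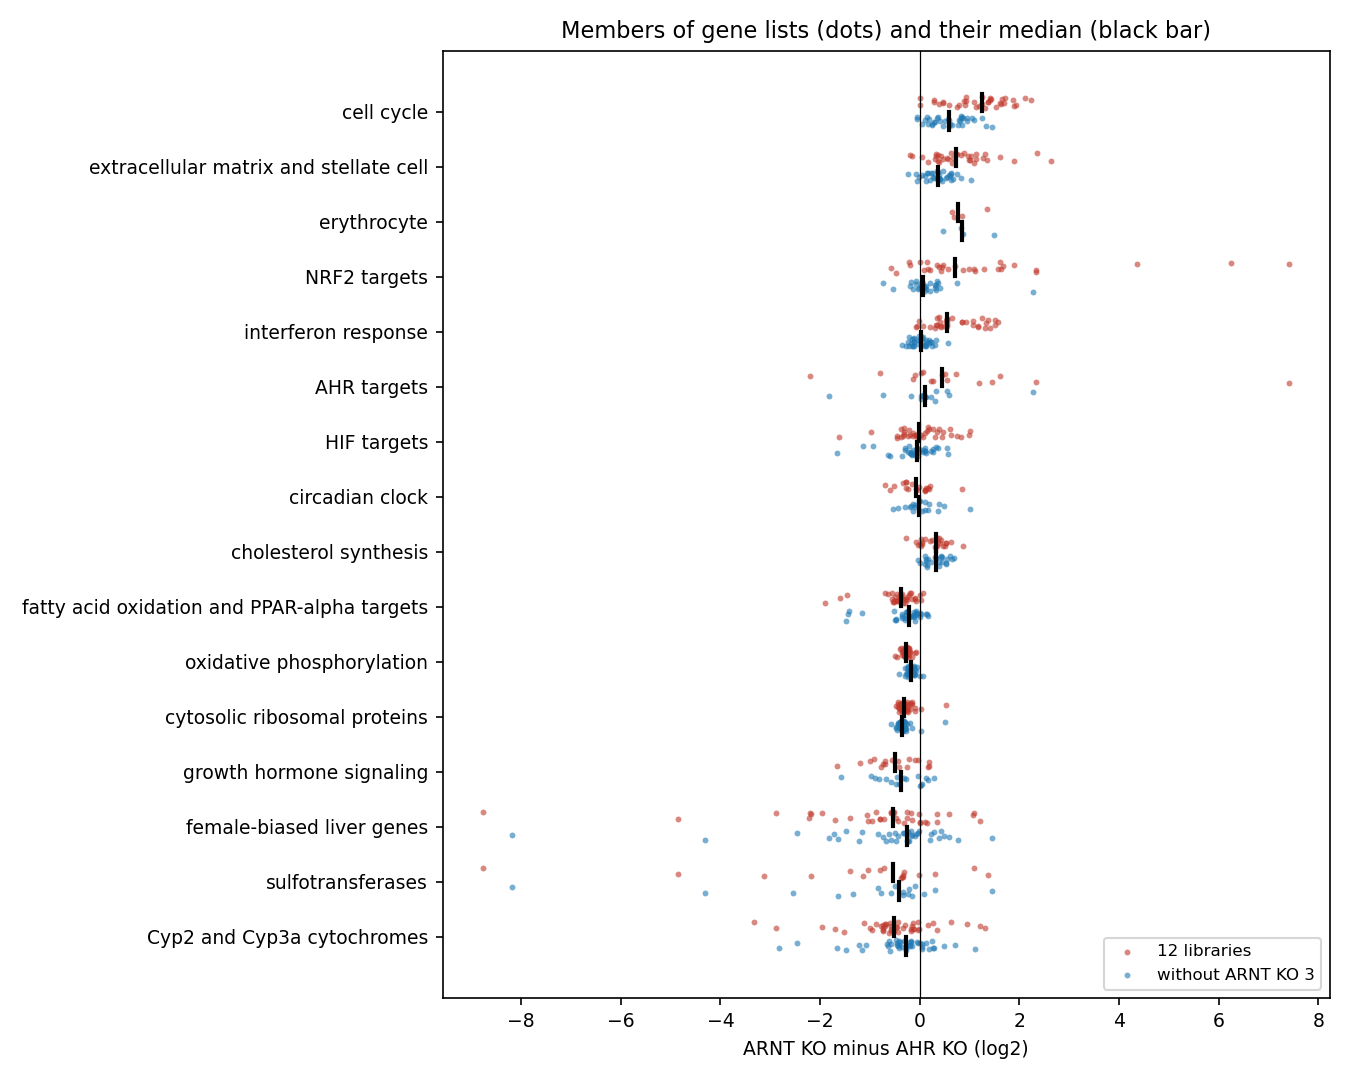
Log2 change of ARNT KO over AHR KO (x axis) for each tested member of 16 gene lists, with all 12 libraries (red) and without ARNT KO 3 (blue); black bars are medians. The cell cycle median moves from 1.26 to 0.59 and the NRF2 and interferon medians from 0.70 and 0.55 to 0.08 and 0.02, while the ribosomal protein median stays near −0.3.

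Targets of AHR itself gave no call between the knockouts, both of which lack a partner of the AHR-ARNT dimer by label. Of 17 tested members 0 were called (edgeR), and without ARNT KO 3 0 of 18 were called. With 12 libraries 8 of the 17 had an unadjusted p under 0.05, where 24.6% of all genes had one. Of the 8, 6 had a positive and 2 a negative change. Cyp1a2, the main hepatic enzyme of the AHR battery, was at 291, 265 and 779.6 CPM in ARNT KO and 349.5, 283 and 310.0 CPM in AHR KO. ARNT KO 1 and 2 lay near AHR KO, while ARNT KO 3 lay in the ARNT Flox range of 743 to 836 CPM (0.50, adjusted p = 0.353, and −0.17, adjusted p = 0.501, without it). Cyp1a1 was at 0.404, 0.508 and 2.07 CPM against 0.586, 0.421 and 0.314 CPM (1.18, adjusted p = 0.219, and 0.06, adjusted p = 0.949), and Tiparp, a poly-ADP-ribosyltransferase that represses AHR, at 11.6, 11.4 and 9.42 CPM against 10.6, 9.97 and 11.2 CPM (0.03, adjusted p = 0.89). Ahrr, the AHR repressor, had 0.0953 to 0.201 CPM in the knockouts, too few to pass the filter with 12 libraries. The list's median was 0.45, and 0.09 without ARNT KO 3, and between the Flox groups it was 0.257 with 12 libraries. With an SE of 0.328 for Cyp1a2 with 12 libraries, equal levels in the knockouts are not shown either.

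Targets of the hypoxia-inducible factors, which need ARNT but not AHR, had 0 of 36 tested members called with or without ARNT KO 3. In the first fit 13 of the 36 had an unadjusted p under 0.05 (4 higher and 9 lower), where 24.6% of all genes had one. The median of these targets was −0.01, and −0.06 without ARNT KO 3. Ankrd37, a gene with ankyrin repeats known as a hypoxia target, was at 0.404, 0.635 and 0.574 CPM in ARNT KO and 1.82, 1.94 and 1.22 CPM in AHR KO. The groups did not overlap, and the change missed the threshold (−1.62, SE 0.408, adjusted p = 0.0727). Pfkl, the liver phosphofructokinase, was at 44.8, 45.1 and 36.6 CPM against 57.3, 55.0 and 60.8 CPM (−0.45, adjusted p = 0.0558). Hif1a, the oxygen-sensitive partner of ARNT, was at 67.4, 63.1 and 64.0 CPM against 52.1, 50.7 and 58.3 CPM (0.27, adjusted p = 0.0969). Circadian genes, some of whose proteins belong to the same bHLH-PAS family, had 0 of 20 members called in either fit. In the first fit 3 of the 20 had an unadjusted p under 0.05, where 24.6% of all genes had one. The circadian median was −0.07, and −0.01 without ARNT KO 3.

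Stress and immune lists turned on ARNT KO 3. NRF2 targets had a median of 0.70 with 12 libraries and 0.08 without that library, with 0 of 31 called in either fit. In the first fit 16 had an unadjusted p under 0.05, where 24.6% of all genes had one. Between the Flox groups the NRF2 median was 0.42. Without ARNT KO 3, 15 of the 31 were called higher between those groups, where 10.9% of all genes were called in either direction. Cbr3, a carbonyl reductase, was at 0.900, 0.890 and 162 CPM in ARNT KO and 0.618, 0.744 and 0.784 CPM in AHR KO, and Gsta1, a glutathione transferase, at 0.466, 0.699 and 61.2 CPM against 0.0651, 0.227 and 0.0627 CPM. Nqo1, a quinone reductase, was at 14.9, 13.2 and 94.8 CPM against 16.5, 14.5 and 9.47 CPM. In all 3 genes ARNT KO 3 was by far the highest knockout library, and none was called (adjusted p = 0.0727 to 0.146). For Gsta1, ARNT KO 1 and 2 also lay above every AHR KO library. Its change was 1.96 to 3.12 under the 15 alternatives to the fit without ARNT KO 3, of which 1 called it. For Cbr3, ARNT KO 1 and 2 lay slightly above AHR KO. Interferon response genes had 18 of 36 at an unadjusted p under 0.05 in the first fit, where 24.6% of all genes had one. The interferon genes had a median of 0.55, and 0.02 without ARNT KO 3, with 0 of 36 called in either fit. Between the Flox groups their median was 0.99, and without ARNT KO 3 the knockout gap was lower than the Flox gap in 16 of the 36, where 1% of all genes were called lower. Irf7, an interferon regulatory factor, was at 45.6, 45.1 and 200.4 CPM against 33.8, 39.7 and 43.3 CPM (1.32, adjusted p = 0.127). H19, an imprinted RNA, was at 5.71, 8.83 and 119.7 CPM against 4.52, 9.42 and 7.49 CPM, and Tuba8, a tubulin, at 0.745, 0.794 and 9.96 CPM against 0.748, 0.388 and 0.376 CPM. Neither was called in either fit. The ARNT Flox libraries held 106 to 114 CPM of Irf7, 65.7 to 120.5 CPM of H19 and 7.62 to 7.86 CPM of Tuba8, so that ARNT KO 3 lay nearer to ARNT Flox than to ARNT KO 1 and 2 for these genes, as for Cyp1a2.

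Opposite Flox differences marked Gpr64 and Atp2b2. Gpr64 (now Adgrg2), an adhesion receptor gene on chromosome X, was at 5.80, 4.92 and 6.55 CPM in ARNT KO and 11.6, 9.25 and 11.2 CPM in AHR KO, and at 11.6 to 15.3 CPM in ARNT Flox and 4.22 to 5.88 CPM in AHR Flox. It was lower between knockouts (−0.89, adjusted p = 0.0355) and higher between Flox groups (1.43, adjusted p = 0.00301). Atp2b2, which encodes a calcium pump of the cell membrane, was at 6.95, 6.70 and 8.16 CPM against 3.22, 2.81 and 2.54 CPM, higher between knockouts (1.35, adjusted p = 0.0197) and lower between Flox groups (−1.35, adjusted p = 0.0299). Both were also called without ARNT KO 3.

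Further calls lay outside the lists. Rcan2, a calcineurin regulator, was lower in ARNT KO at 29.3, 24.5 and 44.1 CPM against 61.4, 102 and 62.7 CPM (−1.21, adjusted p = 0.0371, and −1.48, adjusted p = 0.00969, without ARNT KO 3). Slc26a2, a sulfate transporter, was higher at 4.87, 5.08 and 4.97 CPM against 2.73, 1.49 and 2.29 CPM (1.195, adjusted p = 0.031, and 1.203, adjusted p = 0.0435, without ARNT KO 3). Fgf1, a growth factor, and Sdc4, a heparan sulfate proteoglycan and fibroblast growth factor coreceptor, were lower with 12 libraries (−0.75 and −0.87, adjusted p = 0.0357 and 0.0402), and Ugcg, the glucosylceramide synthase, was lower in both fits (−0.61 and −0.54, adjusted p = 0.0197 and 0.0407). D7Ertd143e, at 0.714, 0.286 and 1.15 CPM against 2.77, 1.78 and 4.08 CPM, and Nlrp12, an innate immune regulator gene on chromosome 7, were lower without ARNT KO 3 only (−2.50 and −1.46, adjusted p = 0.0482 and 0.0142). The gene model of D7Ertd143e lies inside that of Nlrp12, so their reads may not be separable. Of the 44 gene lists, 30 had 0 calls with 12 libraries and 32 without ARNT KO 3.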

How the data were processed

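Liver RNA of 12 mice was analysed from 1 table of counts per gene that the authors deposited (22537 gene symbols). The genome build was mm10, and the tools listed are STAR (2.5.4b, 2.6.0c), bcl2fastq (2.20), DESeq2 (1.20.0) and R (3.5.1), per the submitters' processing notes. How reads were assigned to genes, with or without strand, is not given in the sources used here, so overlapping, antisense and near-identical genes may share reads. Here a negative binomial model of all 4 groups was fitted in edgeR 4.0.16 (R 4.3.3, TMM scaling, filterByExpr, quasi-likelihood test, Benjamini-Hochberg adjustment), with contrasts for the knockouts, for the Flox groups and for the difference between those contrasts, with and without ARNT KO 3. The filter left 13968 genes (99.98% of reads) and 14073 genes. DESeq2 1.42.0, limma 3.58.1 with quality weights, other scalings and filters, only the groups compared, a replicate block and each library left out were alternatives. The fits were also run on simulated counts, drawn from the same mean profile in all libraries apart from changes planted in ARNT KO. No simulated library stood apart and the Flox groups did not differ, so the simulation does not test how the fits handle ARNT KO 3.

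The members and the 44 gene lists were chosen with earlier results of these data known. Genes were named by size of change, by being called in both contrasts or as list members; others, such as those of chromosome 5, were named after their values were seen, as were the stretches of chromosomes. Residuals of same-numbered Flox libraries correlated at 0.327, 0.153 and 0.101, and those of ARNT Flox 3 and AHR Flox 2 at 0.138. Pairing by number is thus not established, and the Flox count is also given with the replicate block. All sample columns were used (0 left out). Some genes are not reported here and were left out of the plot by distance, though counts over all genes include them. The labels do not say whether libraries were prepared independently, so p-values measure the spread between these libraries. A floor of 3 counts is 0.0861 to 0.126 CPM, and intervals of count ratios (95%, exact) cover counting error only. Promoters are from RefSeq.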

Additional observations from a re-analysis of the deposited data

Results flagged for a closer look

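The knockout difference (ARNT KO minus AHR KO, log2) was set against the Flox difference (ARNT Flox minus AHR Flox) in one edgeR model with all 12 libraries. They differed at an adjusted p under 0.05 in 6 of 13968 genes (0.043%), 2 higher and 4 lower. Gpr64, the adhesion receptor gene, differed by −2.32 (adjusted p = 0.00741), and Atp2b2, the calcium pump gene, by 2.70 (adjusted p = 0.0112); in both the knockouts and the Flox groups differed in opposite directions. Arnt differed by −1.30 (adjusted p = 0.0301). Socs2 differed by −2.52 (adjusted p = 0.0461). Rad51l1 (now Rad51b), a DNA repair gene on chromosome 12, differed by −1.75 (adjusted p = 0.0301): it was at 16.4, 16.3 and 11.3 CPM in ARNT KO and 19.3, 21.5 and 27.6 CPM in AHR KO, and at 29.4 to 36.2 CPM in ARNT Flox and 14.5 to 15.7 CPM in AHR Flox. Gas2, a growth arrest gene on chromosome 7, differed by 1.29 (adjusted p = 0.0301): it was at 43.8, 44.1 and 42.8 CPM in ARNT KO and 33.9, 28.2 and 28.4 CPM in AHR KO, and at 28.2 to 34.6 CPM in ARNT Flox and 47.3 to 64.5 CPM in AHR Flox. Without ARNT KO 3 all 6 passed again, among 194 of 14073 genes (1.38%).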

How the results depend on the processing

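The number of calls depended on the test and on single libraries; the cause was not tested. For the knockouts (98) it was 1244 with DESeq2, 554 with quality weights, 8 with only the knockout libraries and 17 to 913 with 1 library left out; without ARNT KO 3 (64) it was 531 with DESeq2, 15 with only the knockout libraries and 17 to 106 with 1 more left out. For the Flox groups (46) it was 572 with DESeq2, 2395 with quality weights, 1615 with only the Flox libraries and 12 to 1532 with 1 left out; without ARNT KO 3 (1532), 517 to 1737, with 517, 631 and 945 without ARNT Flox 1, 2 and 3 and 885 and 673 without AHR Flox 1 and 2. For the difference of those differences (6) it was 148 with DESeq2, 238 with quality weights and 1 to 194 with 1 left out: 2 without ARNT KO 2, 194 without ARNT KO 3, 3 and 1 without ARNT Flox 2 and 3, 3 without AHR Flox 1 or 3 and 1 without AHR KO 2; without ARNT KO 3 (194), 577 with DESeq2 and 27 to 258. Shared knockout and Flox calls (14) numbered 112 with DESeq2, 155 with quality weights, 5 with only the groups compared and 8 to 31 with 1 left out; without ARNT KO 3 (26), 123, 7 with only the groups compared, and 10 to 39.

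Residuals of same-numbered knockout libraries correlated at 0.164, −0.127 and 0.145, which does not settle whether the numbers pair them. With the replicate block 85 genes were called between the knockouts, 63 of them among the 98, and 43 without ARNT KO 3. With the replicate block the Flox count was 23, the shared calls 9, and the 194 became 128.

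No called gene reversed. Some uncalled genes did: Cyp1a2 with quality weights (−0.16; −0.17 to 0.77 with 1 library left out), Tiparp (−0.017 to 0.13), and, without ARNT KO 3, Cyp1a1 (replicate block −0.051; −0.13 to 0.32), Nqo1 (−0.13 to 0.24) and H19 (replicate block −0.048; −0.31 to 0.31). Of the list medians under alternatives, 814 stayed within the spread between replicates and 21 did not. That spread was taken over the knockout libraries with ARNT KO 3 included, which widens it for lists in which that library stood apart. A median within it can therefore still depend on ARNT KO 3, as those of NRF2 targets (0.70, and 0.08 without it) and interferon genes (0.55 and 0.02) did. Size factors in place of TMM moved the median of all genes from 0.0139 to 0.0159. Genes that did not reach about 10 counts in as many libraries as the smallest group holds were not tested.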
